A study of Drosophila melanogaster with 4 samples.

Results

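The elements '297' and '17.6' are a pair of closely related endogenous retroviruses of *Drosophila melanogaster*, and they were followed here through direct RNA sequencing libraries of ovaries and of cultured ovarian cells. They were chosen by name, as the rows called '297' and '17.6' in the deposited files. They are 2 of the 124 transposons in files that cover 150 reference sequences. Both names are digits, and they stand in quotation marks so that they are not read as values. Each of the 4 groups had 1 library. Ovaries of Tj-GAL4>vretenoGD flies carried a hairpin against *vreteno*, and ovaries of Tj-GAL4>arrestin2GD flies carried one against *arrestin2* as the control. Both genotypes share the Tj-GAL4 driver, which works in ovarian somatic cells and not in germ cells, so the germ cells in these ovaries were not targeted. OSCs are somatic follicle cells kept in culture as a line, without germ cells, and they received siPIWI or, as the control, siGFP. Fly age and the number of animals per library were not given in the labels. The series concerns movement of retrotransposons from cell to cell, and the libraries address which transposon RNAs are present when somatic silencing is reduced.

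Endogenous retroviruses of this kind carry *gag*, *pol* and *env* genes between a pair of identical long terminal repeats. In the textbook scheme of a retrovirus, transcription starts in the 5' repeat and the RNA is cut and polyadenylated in the 3' repeat, so a full-length RNA ends inside the repeat and before the last base of the element. The *env* gene encodes the surface protein with which retroviruses enter cells. In follicle cells, elements of the gypsy group are silenced by piRNAs, small RNAs bound by the nuclear protein Piwi. Vreteno, a Tudor-domain protein, is needed to make these piRNAs. The labels do not state what a count at a position marks. The counts fill few positions. Among transposons with at least 20 reads (50 in siPIWI OSCs), the median share in the last 10% of the consensus was 63.9% to 79.4% per library. Direct RNA sequencing starts from the poly(A) tail. Each count was therefore read here as the position at which a read ended, the 3' end of the RNA as captured. All statements on ends rest on this reading.

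The libraries differed in depth, which sets the precision of every value. Transposon reads numbered 5156 in vreteno knockdown ovaries, 2382 in control ovaries, 164243 in siPIWI OSCs and 57045 in siGFP OSCs. The files hold only repeat sequences, so neither the ovarian identity of the samples nor the levels of *vreteno* and *piwi* could be checked. With 1 library per group no test between conditions could be made, and all intervals below are 95% intervals for counting error alone. They compare libraries, not conditions.

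In OSCs '297' was the element with the clear difference, and '17.6' differed in the same direction by less. The element '297' had 3306 reads in siPIWI OSCs and 87 in siGFP OSCs. It was the seventh most abundant of the 124 transposons in siPIWI OSCs (rank 7) and held rank 21 in siGFP OSCs. The element '17.6' had 206 reads in siPIWI OSCs and 27 in siGFP OSCs, at rank 22 in siPIWI OSCs and rank 32 in siGFP OSCs. In ovaries both elements were scarce. The element '297' had 23 reads in vreteno knockdown ovaries and 13 in control ovaries, while '17.6' had 25 reads in vreteno knockdown ovaries and 29 in control ovaries. The ovary counts of both elements were thus close together before any scaling for depth.

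**Figure D1:**
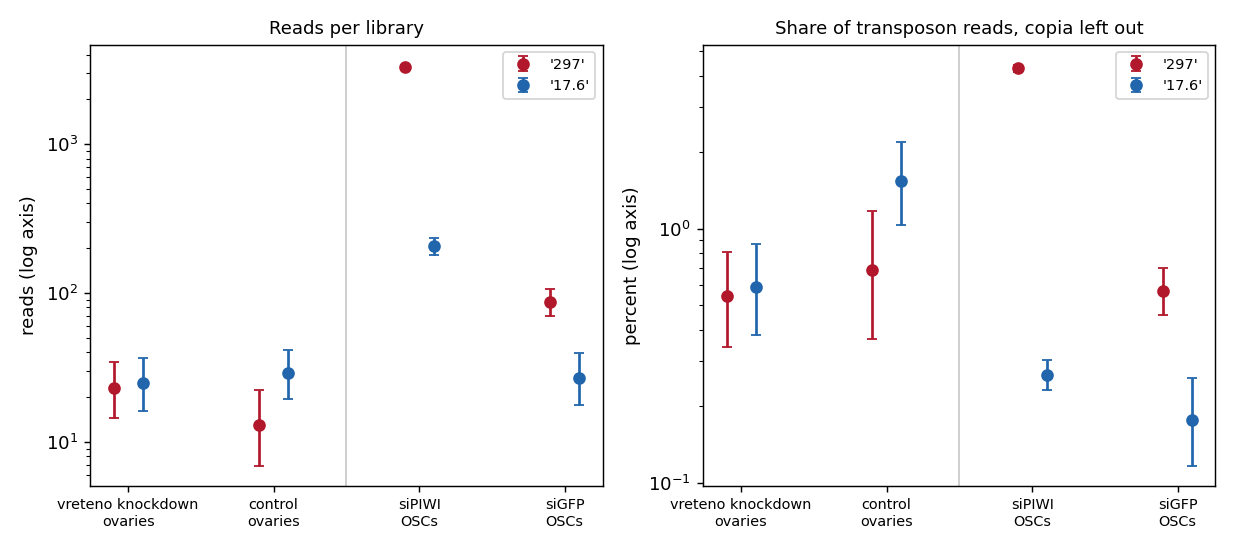
Reads of '297' (red) and '17.6' (blue) in each library (left, log axis) and their percentage of transposon reads with copia left out (right, log axis). Points are single libraries and bars are 95% counting intervals. In siPIWI OSCs '297' stands at 3306 reads, above all other points, while the ovary points of both elements lie between 13 and 29 reads.

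As a share of transposon reads, '297' made up 2.01% (1.95 to 2.08) in siPIWI OSCs and 0.153% (0.122 to 0.188) in siGFP OSCs. The retrotransposon copia took 52.9% of transposon reads in siPIWI OSCs and 73.2% in siGFP OSCs, which lowers every other share in OSCs. With copia left out, '297' took 4.28% (4.13 to 4.42) of the reads in siPIWI OSCs and 0.570% (0.457 to 0.702) in siGFP OSCs. On the same basis it took 0.541% (0.343 to 0.810) in vreteno knockdown ovaries and 0.690% (0.368 to 1.18) in control ovaries. The siGFP share and both ovary shares of '297' had overlapping intervals, and the siPIWI share lay above all 3. For '17.6' the shares without copia were 0.266% (0.231 to 0.305) in siPIWI OSCs and 0.177% (0.117 to 0.257) in siGFP OSCs. They were 0.588% (0.381 to 0.867) in vreteno knockdown ovaries and 1.54% (1.03 to 2.20) in control ovaries. The 2 ovary intervals of '17.6' did not overlap, with the lower share in the knockdown. Over all reads, '17.6' therefore took its largest share in control ovaries, and '297' took its largest share in siPIWI OSCs. The ovary shares of '17.6' include upstream ends, given below, with 12 of 25 reads with vreteno knockdown and 22 of 29 in the control. Its other ends numbered 13 with vreteno knockdown and 7 in the control, and no share was computed for them. Each share also depends on the reads of the other transposons, which differed between the ovary libraries.

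The first pair of libraries set siPIWI against siGFP OSCs. Reads were scaled by the median ratio of the 54 transposons that reached 10 reads in each library, a depth ratio of 1.99 (1.55 to 2.63). The scaled fold of '297' was 19.1 (15.5 to 24.0), the seventh highest log2 ratio (4.25, with a pseudocount of 1 read) of the 73 transposons that reached 10 reads in at least 1 of the 2 libraries, the read minimum used throughout. The scaled fold of '17.6' was 3.84 (2.57 to 5.97), a log2 ratio of 1.91 at rank 20. Calling an element higher at a log2 ratio of at least 2, a 4-fold difference, 18 of the 73 transposons were called, or 24.7%. The element '297' was among them and '17.6' lay just under the threshold. It passed the threshold at a log2 ratio of 2.19 when the 14 gypsy-group elements described below were kept out of the scaling, and at 2.30 when only the last 10% of the consensus was counted. It lay further under it with scaling to total transposon reads (1.39), with a pseudocount of 10 reads (1.70) and with scaling to the sequences that are not transposons (1.81). At 2-fold both were called, as were 38.4% of the 73.

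The second pair set vreteno knockdown against control ovaries, at a depth ratio of 0.903 (0.761 to 1.07) over 30 transposons. The scaled fold of '297' was 1.96 (0.952 to 4.21), a log2 ratio of 0.92 at rank 20 of 45 transposons past the minimum. The scaled fold of '17.6' was 0.954 (0.536 to 1.69), a log2 ratio of -0.06 at rank 30. Both intervals include 1 under this scaling. With scaling to total transposon reads, 2.16 times as many in the knockdown, the log2 ratios were -0.28 for '297' and -1.28 for '17.6', and the fold of '17.6' was 0.398 (0.224 to 0.704), an interval below 1. With scaling to the sequences that are not transposons, 245 reads in vreteno knockdown ovaries and 406 in control ovaries, the log2 ratios were 1.46 for '297' and 0.50 for '17.6', and the fold of '297' was 2.93 (1.42 to 6.30), an interval above 1. Without the gypsy-group elements in the median they were 1.05 for '297', at a fold of 2.16 (1.05 to 4.64), and 0.07 for '17.6'. The direction of both elements in ovaries thus depends on the scaling. Neither was called at 4-fold, against 24.4% of the 45 transposons. Under the median scaling neither was called at 2-fold, against 42.2%, while '297' passed 2-fold under the last 2 scalings. In whole ovaries, a change in the number of cells of a type and a change in RNA per cell cannot be told apart.

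The balance between the 2 relatives within a library needs no scaling, though how reads that match both were assigned was not stated. There were 16.05 reads of '297' for each read of '17.6' in siPIWI OSCs (13.9 to 18.6) and 3.22 in siGFP OSCs (2.07 to 5.16). Per kilobase of consensus these ratios were 17.1 in siPIWI OSCs and 3.43 in siGFP OSCs. In ovaries the ratio was 0.920 (0.499 to 1.69) with vreteno knockdown and 0.448 (0.214 to 0.890) in the control, or 0.978 per kilobase with vreteno knockdown and 0.477 in the control. Over all reads, '17.6' was thus the more abundant of the pair in control ovaries, while in both OSC libraries '297' was. The order in control ovaries rests on upstream ends of '17.6' at positions 1045 to 1049, given below, which held 22 of its 29 reads there. Without them '17.6' had 7 reads in control ovaries, against 13 of '297'. The fold of '297' exceeded the fold of '17.6' by 4.98 times in OSCs (exact conditional odds ratio, 3.03 to 7.95). In ovaries the corresponding odds ratio was 2.04 (0.796 to 5.37), which includes 1. At only the position with the most reads of each element in the knockdown library, these ratios were 1.93 in OSCs and 8.09 in ovaries. No interval was computed for them, and the ovary value sets unlike ends side by side. It takes position 6913 of '297', near its 3' end, with 5 reads in the knockdown and 1 in the control. For '17.6' it takes position 1047, far upstream, with 8 reads in the knockdown and 14 in the control.

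Between the 2 comparisons, the log2 fold of '297' was higher by 3.29 in OSCs than in ovaries (2.26 to 4.32 by counting error, 1.61 to 4.92 once the uncertainty of both depth ratios is added). For '17.6' the difference was 2.01 (1.05 to 2.97, and 0.39 to 3.58 with the depth ratios). Both intervals exclude 0. For '17.6' this difference depends on a set of upstream ends in the ovary libraries, given below, and without them it was 0.95 (-0.50 to 2.40). The 2 comparisons differ in the gene targeted, the means of knockdown, the control and the material. The parts these play in either difference cannot be told apart.

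Other gypsy-group elements with an *env* gene differed widely from the pair and from each other. Of 15 such names listed, 14 were in the files. Without '297' and '17.6', 10 of the remaining 12 passed the read minimum in OSCs. At least 4-fold higher with siPIWI were 4 of these 10, against 18 of all 73 transposons (24.7%). The median log2 ratio of the 10 was 1.90, against 0.29 for all 73. In ovaries 7 of the 12 passed, and 4 were at least 4-fold higher with vreteno knockdown, against 11 of all 45 transposons (24.4%). The median of the 7 was 2.45, against 0.26 for all 45. Of these, 4 of the 10 in OSCs and 5 of the 7 in ovaries reached the minimum in the knockdown library alone, as did 19 of the 73 and 14 of the 45 transposons. Such elements had to have more reads in the knockdown before scaling, so these counts and medians are partly set by the read minimum. After scaling such an element could still be lower. In OSCs hopper had 10 reads with siPIWI and 9 with siGFP, a log2 ratio of -0.76. In OSCs '297' stood beside gypsy, at a log2 ratio of 3.92 (11386 reads with siPIWI and 377 with siGFP), and gtwin, at 4.46 (204 reads with siPIWI and 4 with siGFP). The highest of the list was gypsy5, at 6.66 (141 reads with siPIWI and 0 with siGFP), while Idefix stood below '297', at 3.42 (35 reads with siPIWI and 1 with siGFP). In ovaries the log2 ratio of '297' (0.92) stood below those of ZAM (7.29), gypsy (6.07) and springer (4.73). Vreteno knockdown ovaries held 573 reads of ZAM, 367 of gypsy and 383 of springer, against 3, 5 and 15 in control ovaries. In OSCs the log2 ratios of ZAM (1.81) and springer (0.76) stood below that of '297' (4.25). In ovaries the log2 ratio of '17.6' (-0.06) was the nearest to 0 of the listed elements past the minimum, with opus next at 0.26. Of all reads assigned to the 14 elements, '297' made up 6.99% (6.77 to 7.23) in siPIWI OSCs and 0.882% (0.707 to 1.09) in siGFP OSCs. In ovaries this share was 1.58% (1.004 to 2.36) with vreteno knockdown and 13.7% (7.49 to 22.3) in the control. The share of '17.6' in the group was 1.72% (1.11 to 2.52) in vreteno knockdown ovaries and 30.5% (21.5 to 40.8) in control ovaries. The group had 1456 reads in vreteno knockdown ovaries and 95 in control ovaries. The smaller shares of both elements with vreteno knockdown thus went with a larger group total.

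**Figure D2:**
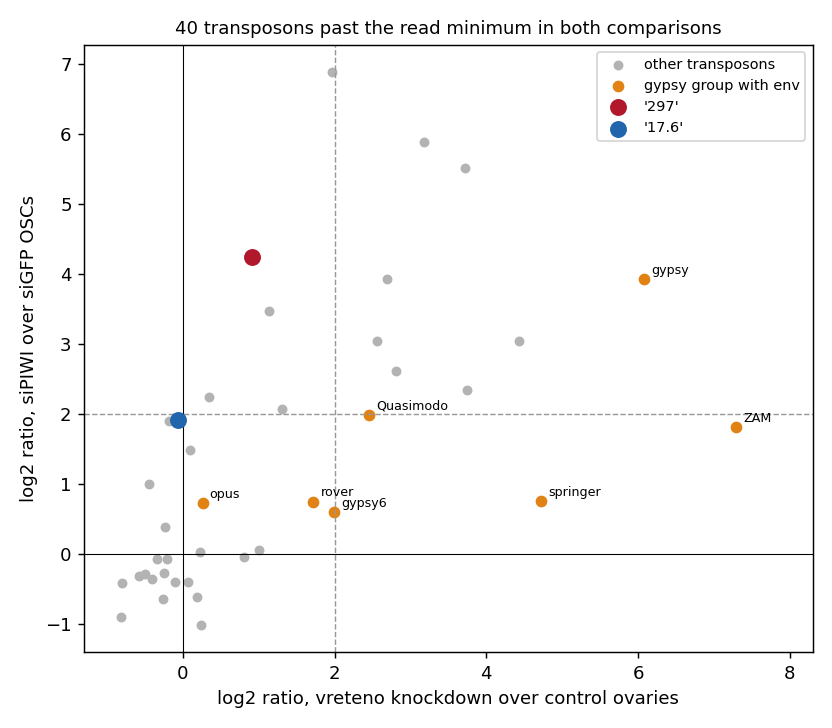
Log2 ratio of each of the 40 transposons past the read minimum in both comparisons, with vreteno knockdown over control ovaries on the horizontal axis and siPIWI over siGFP OSCs on the vertical axis. Dashed lines mark the 4-fold threshold. The element '297' (red, 0.92 and 4.25) passes it in OSCs alone, '17.6' (blue, -0.06 and 1.91) lies just under it, and ZAM and springer (orange) pass it in ovaries alone.

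The transposons most like each element were found as those at the smallest Euclidean distance in the 2 log2 ratios, among 39 candidates. For '297' these were the LTR element flea at a distance of 0.80 (log2 ratios of 1.13 in ovaries and 3.48 in OSCs), the DNA transposon Transib1 at 1.80 and the LTR element Stalker at 2.04. Transib1 rests on few reads, with 11 in vreteno knockdown and 1 in control ovaries, and 20 in siPIWI and 0 in siGFP OSCs. For '17.6' they were the P-element, a DNA transposon, at 0.11 (-0.18 and 1.90), the non-LTR element Doc at 0.46 (0.10 and 1.49) and the copia-like Dm88 at 0.53 (0.35 and 2.24). The 2 relatives were not each other's nearest: '17.6' was the seventh nearest to '297' (rank 7, distance 2.53), and '297' was at rank 24 from '17.6'. All of these distances carry the counting error of small read numbers. Those of '17.6' also rest on its upstream ends in ovaries, given below. Without these ends its ovary log2 ratio was 0.94 in place of -0.06, and no distance was computed on that basis.

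Next, the positions at which reads ended were set out along each element. In OSCs reads of both elements ended mostly in the last part of the consensus, with a smaller group at the start. In ovaries the last 10% of the consensus held 60.9% of '297' reads with vreteno knockdown and 46.2% in the control. It held 52.0% of '17.6' reads with vreteno knockdown and 20.7% in the control. The group at the start repeated the large one. Ends of '297' within the first 414 positions were a copy of ends 6581 positions downstream, and this offset was the one that paired the most reads, 193 over all libraries. The next best, 6569, paired 169. All 193 reads in those 414 positions, on 18 nucleotides, had reads on the partner nucleotide. Of the 414 partner nucleotides, 57 (13.8%) held any. With a consensus of 6995 positions, the offset gives terminal repeats of 414 positions. For '17.6', with 7439 positions, the best offset was 6927 and the implied repeat 512 positions long. It paired 30 reads against 27 for the next best, 7048. Of the 35 reads in the first 512 positions, 30 had reads on the partner nucleotide. Both offsets were chosen as those that paired the most reads in these same counts, so the pairing does not test them. The ends were therefore sorted into the 5' repeat, the 3' repeat, the last 10 positions of the 3' repeat, and the internal part. These classes were set after the positions had been seen.

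**Figure D3:**
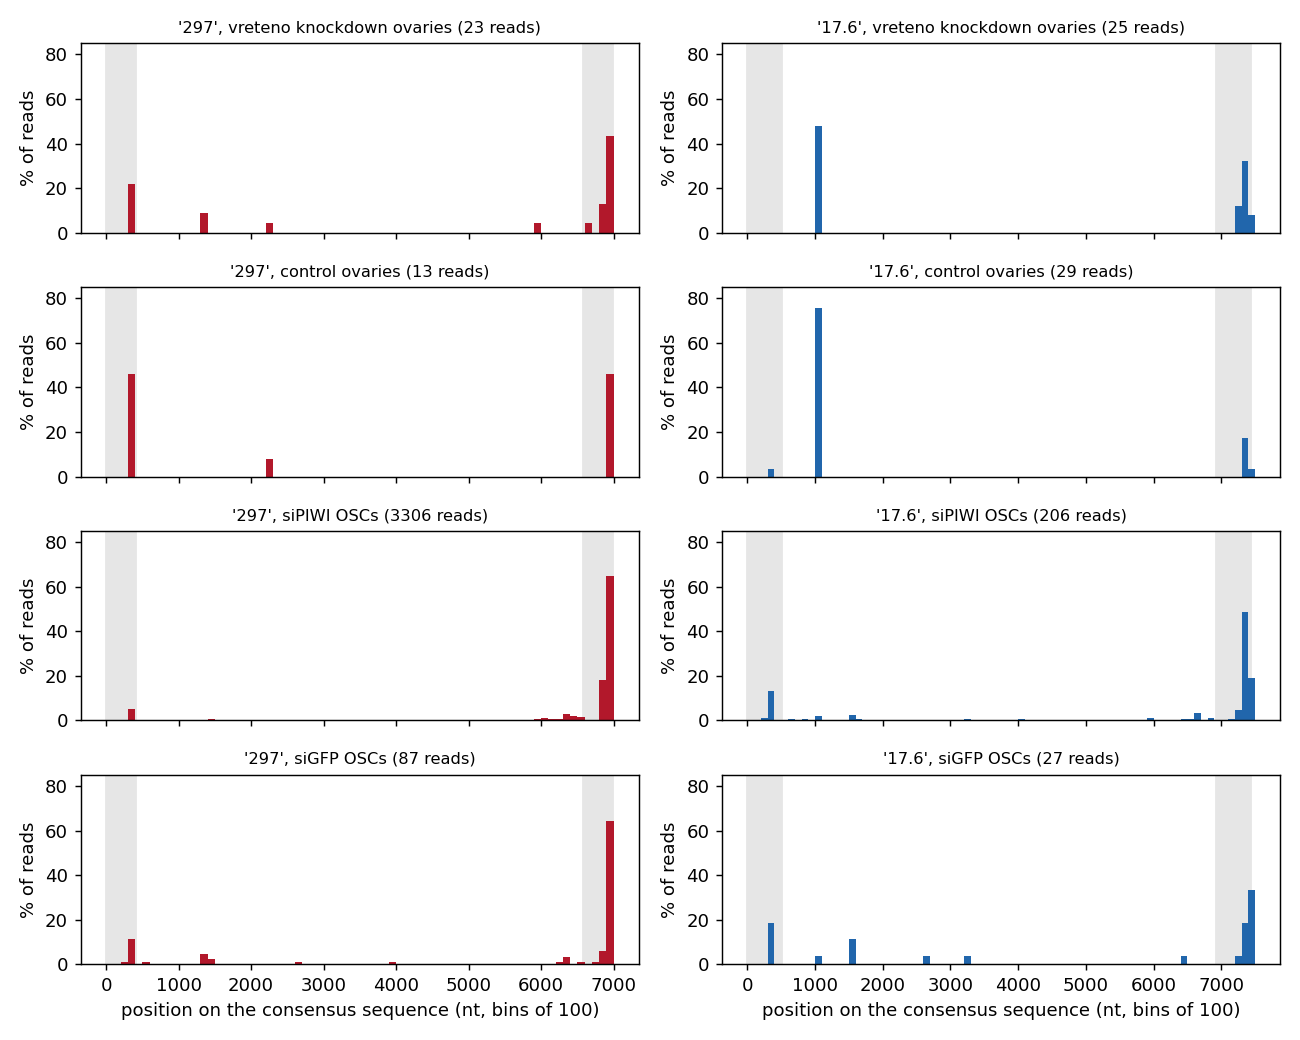
Percentage of reads of '297' (left) and '17.6' (right) ending in each bin of 100 positions along the consensus sequence, 1 row per library, with the terminal repeats shaded. In both elements most OSC ends lie in the 3' repeat. In ovaries '17.6' has a tall bar outside the repeats, at positions 1045 to 1049, with 12 of 25 reads in vreteno knockdown ovaries and 22 of 29 in control ovaries.

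Within the 3' repeat, '297' reads ended at a cluster of sites, and not at 1 nucleotide. In siPIWI OSCs 842 reads ended at position 6913 and 812 at position 6905, together 50.03% (48.3 to 51.7) of all '297' reads. Position 6901 followed with 212 reads, 6893 with 155 and 6889 with 107. Neighbours among these 5 sites lay 4 or 8 nucleotides apart. Other ends of the cluster fell off these steps, with 69 reads at 6896, 61 at 6888 and 52 at 6886. Both leading sites held reads in every library. In vreteno knockdown ovaries 5 reads ended at 6913 and 2 at 6905. In control ovaries there was 1 read at 6913 and 4 at 6905. In siGFP OSCs there were 15 reads at 6913 and 8 at 6905, together 26.4% of all (17.55 to 37.0). A difference in the balance between the 2 sites was not resolved, with an odds ratio of 0.553 (0.202 to 1.40) in OSCs. In ovaries it was 7.96 (0.431 to 588), from too few reads to show whether the balance was alike.

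Outside the last 10 positions, '17.6' also had a pair of leading sites in its 3' repeat, 7317 and 7306. In siPIWI OSCs they held 58 and 27 of 206 reads. In siGFP OSCs they held 2 and 1 of 27. In vreteno knockdown ovaries position 7317 held 1 read and 7306 held 6, while in control ovaries 7317 held 1 and 7306 held 2. Counted from the last base of each consensus, the leading sites of '297' lay 82 and 90 positions upstream, and those of '17.6' lay 122 and 133 upstream. These sites of the 2 relatives thus lay at different distances from the last base. They were not the only frequent ends: position 7438 of '17.6', next to the last base, held 30 reads in siPIWI OSCs and 7 in siGFP OSCs, where it was the leading position.

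**Figure D4:**
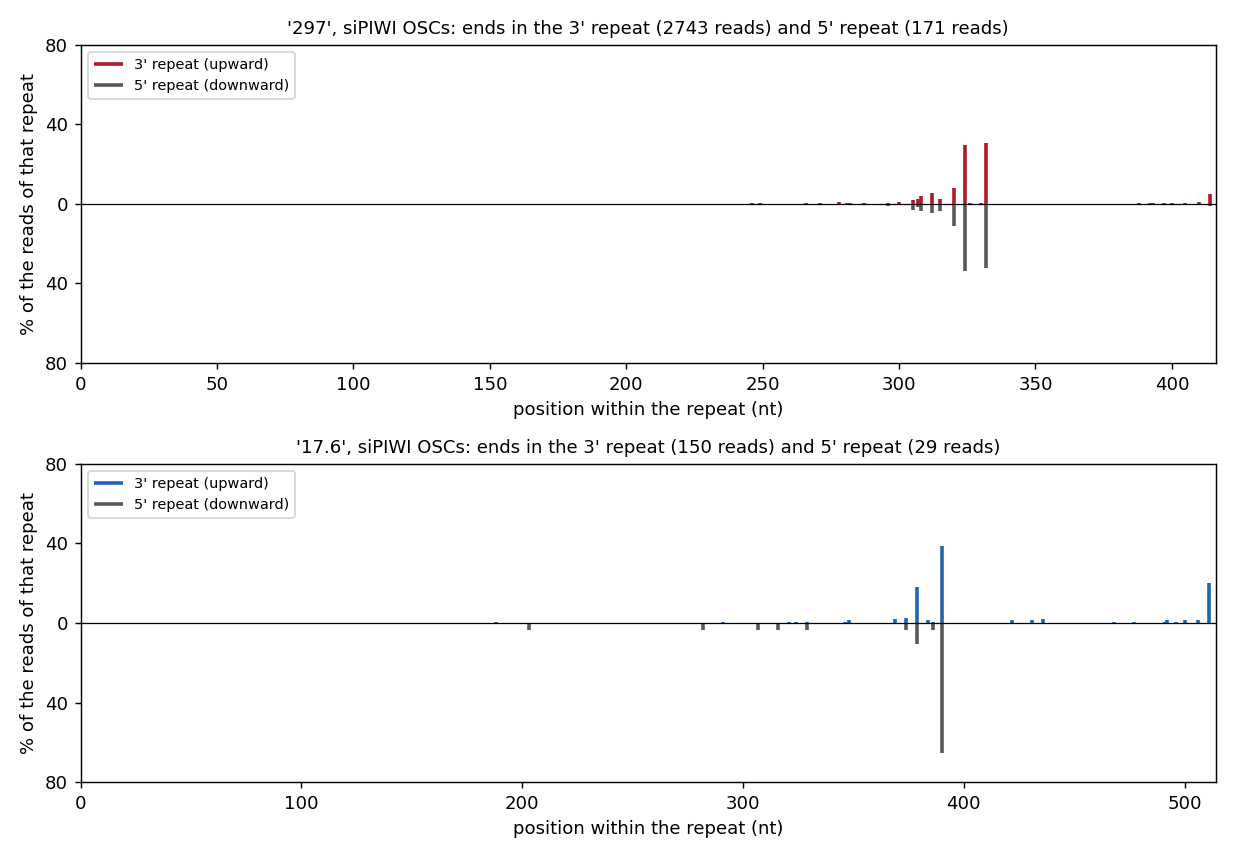
Ends within the terminal repeats in siPIWI OSCs for '297' (top, 414 positions) and '17.6' (bottom, 512 positions), as percentages of the reads of each repeat. Lines up are the 3' repeat and lines down the 5' repeat, both on the same positions within the repeat. The main lines up and down of '297' fall at the same places, as does the tallest pair of '17.6'.

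The same sites appeared in the 5' repeat in every library of '297'. In siPIWI OSCs position 324, the partner of 6905, held 58 reads and position 332, the partner of 6913, held 55. The 5' repeat took 6.23% (5.36 to 7.20) of the reads in the repeats in siPIWI OSCs, 171 of 2744. In siGFP OSCs it took 11 of 50, or 22% (11.5 to 36.0). The odds of an end in the 5' against the 3' repeat of '297' were lower with siPIWI, at an odds ratio of 0.236 (0.116 to 0.520). In ovaries the 5' repeat took 5 of 18 such reads with vreteno knockdown and 6 of 12 in the control, an odds ratio of 0.398 (0.0639 to 2.28). For '17.6' it took 29 of 147 in siPIWI OSCs and 5 of 12 in siGFP OSCs, an odds ratio of 0.347 (0.0874 to 1.49). In ovaries it took 0 of 12 with vreteno knockdown and 1 of 6 in the control. No source used here states how reads that match both repeats equally well were placed, so ends in the 5' repeat and 3' ends placed there by the alignment cannot be told apart.

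A further set of OSC reads ended on the last bases of the consensus, beyond the main sites. An alignment to a consensus cannot run past its last base, so these counts do not show whether the RNA went on into flanking sequence. In siPIWI OSCs 129 '297' reads ended on the very last position, 6995, and 170 in the last 10 positions. In siGFP OSCs 22 ended on position 6995, its leading position there, and 23 in the last 10. These ends were 5.14% (4.41 to 5.95) of '297' reads in siPIWI OSCs and 26.4% (17.55 to 37.0) in siGFP OSCs. For '17.6' they were 15.5% (10.9 to 21.2), 32 of 206, in siPIWI OSCs and 29.6% (13.8 to 50.2), 8 of 27, in siGFP OSCs. In ovaries the last 10 positions held 1 '297' read with vreteno knockdown and 0 of 13 in the control, a count of 0 that allows a share of up to 24.7% (upper exact 95% bound). They held 1 '17.6' read in each ovary library.

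The fold in OSCs differed by where reads ended on the consensus. For '297' the scaled fold was 33.2 (24.2 to 46.8) in the 3' repeat outside the last 10 positions, from 2573 reads with siPIWI and 39 with siGFP. It was 3.72 (2.40 to 6.03) in the last 10 positions, and the odds ratio of the last 10 positions to the rest of the 3' repeat was 0.112 (0.0637 to 0.202). For '17.6' the fold was 8.49 (3.99 to 21.6) in the 3' repeat, from 118 reads with siPIWI and 7 with siGFP, and 2.02 (0.909 to 5.06) in the last 10 positions, with an odds ratio of 0.240 (0.0683 to 0.820). Both relatives thus had a larger fold in the 3' repeat outside the last 10 positions than in those positions. Taking both repeats without the last 10 positions, '17.6' was 6.17-fold higher (3.43 to 12.2), against 3.84-fold over all its reads. The '297' fold in this set was 27.6 (20.9 to 37.3), and it exceeded that of '17.6' by 4.48 times (odds ratio, 2.12 to 8.76).

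**Figure D5:**
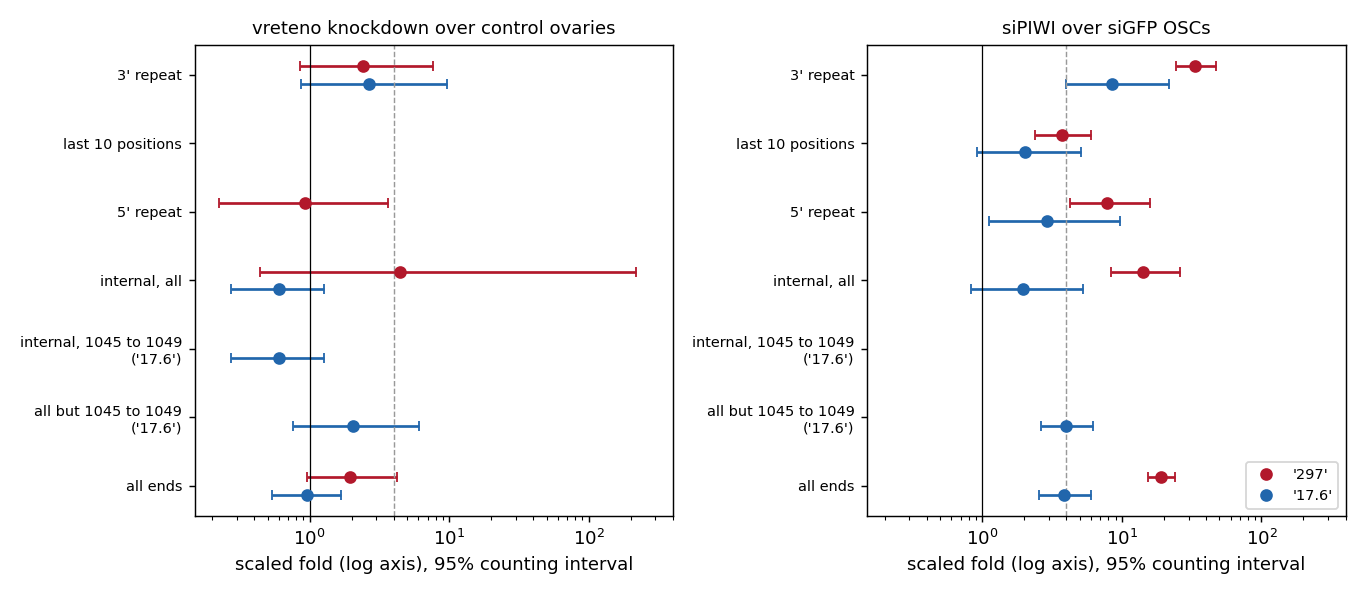
Scaled folds of '297' (red) and '17.6' (blue) by where reads ended, for vreteno knockdown over control ovaries (left) and siPIWI over siGFP OSCs (right), on log axes with 95% counting intervals. Classes with under 5 reads in both libraries together or no read in the knockdown are left out, and the dashed line marks 4-fold. In OSCs the 3' repeat stands at 33.2 for '297' and 8.49 for '17.6', right of the last 10 positions at 3.72 and 2.02.

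In ovaries many '17.6' reads ended far upstream of the 3' repeat. In vreteno knockdown ovaries 8 of 25 reads ended at position 1047 and 12, or 48.0% (27.8 to 68.7), at positions 1045 to 1049. In control ovaries 14 of 29 ended at position 1047 and 22, or 75.9% (56.5 to 89.7), in the same 5 positions. In OSCs these positions held 1 of 206 reads with siPIWI (0.485%, 0.0123 to 2.67) and 1 of 27 with siGFP (3.70%, 0.0937 to 19.0). Such ends thus took a larger share in both ovary libraries than in both OSC libraries. The site was chosen as the highest internal position in the ovary libraries, so its high share there was partly set by the choice. Ends in the first 30% of the sequence were not particular to '17.6'. In vreteno knockdown ovaries '17.6' (48.0%) ranked 8 of 32 transposons that reached 20 reads, whose median was 8.33%. In control ovaries it ranked 4 of 23 (79.3%, median 24.5%).

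The ovary fold of '17.6' joined these ends with those near the 3' end. Ends at 1045 to 1049 had a scaled fold of 0.604 (0.272 to 1.27), from 12 reads with vreteno knockdown and 22 in the control. All other '17.6' ends had a fold of 2.06 (0.762 to 6.09), from 13 reads with vreteno knockdown and 7 in the control, close to the 1.96 (0.952 to 4.21) of '297'. The odds ratio between the upstream and the other ends was 0.301 (0.0778 to 1.07), so the difference between these classes was not resolved at this depth. With the upstream ends left out, the ratio of the '297' to the '17.6' fold in ovaries was 0.953 (0.254 to 3.41), against 2.04 with them. In OSCs the same step left the ratio at 4.82 (2.91 to 7.73).

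Internal ends of '297' were few and gathered just before the 3' repeat in siPIWI OSCs. In that library 392 reads, 11.9% (10.8 to 13.01), ended between the repeats, and 213 of them lay in the last 300 positions before the 3' repeat, from 6282 to 6581, with 40 at position 6319 and 28 at 6516. In siGFP OSCs 14 of 87 reads ended between the repeats, 4 of them in that stretch. Internal ends downstream of the midpoint of '297' had a scaled fold of 28.4 (12.9 to 77.9), from 338 reads with siPIWI and 6 with siGFP. Those upstream of it had a fold of 3.40 (1.61 to 8.27), from 54 reads with siPIWI and 8 with siGFP. In '17.6', 27 of 206 reads ended between the repeats in siPIWI OSCs and 7 of 27 in siGFP OSCs. The last 10% of the consensus held 89.3% of '297' reads in siPIWI OSCs and 75.9% in siGFP OSCs, and 73.8% of '17.6' reads in siPIWI OSCs and 55.6% in siGFP OSCs.

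Most control ends were found again in the knockdown at the exact nucleotide. Of the 32 positions with '297' reads in siGFP OSCs, 25 also held reads in siPIWI OSCs, and these carried 80 of the 87 siGFP reads. For '17.6', 11 of 18 positions recurred, with 20 of 27 reads. In ovaries 4 of 8 positions of '297' in the control recurred with vreteno knockdown, with 8 of 13 reads, and 5 of 10 positions of '17.6', with 24 of 29 reads. The siPIWI library held reads on 237 positions of '297' and 56 of '17.6', so its greater depth gave a control end more positions to recur on.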

How the data were processed

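Poly(A) RNA was sequenced directly on a nanopore device with the RNA002 kit, per the labels' protocols. The authors deposited, for each of 4 libraries, whole-number counts at 672432 positions of 150 reference sequences, without strand. The submitters' processing notes name minimap2. Its settings, the reference set and the handling of reads that match several sequences, such as '297' and '17.6' or the 2 repeats of 1 element, are not given in the sources used here. The deposited counts fill few positions and pile up near 3' ends, so they were read as read ends.

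Counts were summed per element. Of the sequences, 124 were transposons and 26 were not. Knockdown libraries were scaled to controls by the median ratio over transposons that reached 10 reads in each. Log2 ratios used a pseudocount of 1 read added after both libraries were brought to their geometric mean depth. Folds carry exact conditional 95% intervals, shares exact Clopper-Pearson intervals and ratios of folds exact conditional odds ratios; differences of log2 folds carry a normal approximation from Poisson counts. All cover counting error only. Python 3.11.15, pandas 2.3.3, numpy 2.4.6 and scipy 1.17.1 were used, and scaling and calls were tested on simulated data. Named elements were the 2 members, the listed gypsy-group elements with an *env* gene, and the 3 elements nearest to each member. The members and lists were chosen with earlier results of these data known. No consensus sequence was used here. The classes of end positions were set after the positions had been seen, with the upstream site of '17.6' taken as its highest internal position in ovaries and 2 positions on each side.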

Additional observations from a re-analysis of the deposited data

Results flagged for a closer look

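The element '17.6' stood on opposite sides of 0 in the 2 comparisons. Its log2 ratio was -0.06 for vreteno knockdown over control ovaries and 1.91 for siPIWI over siGFP OSCs, a gap of 1.98, and each side is 1 library against 1. The difference between the comparisons was not tested beyond counting error. The ovary value lies within counting error of 0, and its sign depends on the setting. It was 0.50 with scaling to the sequences that are not transposons, 0.07 without the gypsy-group elements in the scaling and 0.94 with the ends at positions 1045 to 1049 left out, all on the same side as OSCs, and -1.28 with scaling to total transposon reads.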

How the results depend on the processing

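The direction of the '297' and '17.6' differences in OSCs held under all alternatives tried, while in ovaries it depended on the scaling. With scaling to total transposon reads, the ovary log2 ratio was -0.28 for '297' and -1.28 for '17.6', and in OSCs '297' was at 3.71. Without scaling, OSC log2 ratios were 5.23 for '297' and 2.89 for '17.6'. The highest single position, picked in the knockdown library, gave 4.76 for '297' and 3.47 for '17.6' in OSCs. Picking it there favours a higher fold. The leading positions of siGFP OSCs held 129 reads with siPIWI and 22 with siGFP for '297' (6995), and 30 and 7 for '17.6' (7438). The highest single position made the ratio of the '297' to the '17.6' fold 1.93 in OSCs and 8.09 in ovaries. The ovary ratio sets a 3' repeat end of '297' against an upstream end of '17.6'. Counting only the last 10% of the consensus put '17.6' at 1.13 in ovaries. In alternatives added after the data were seen, leaving out the upstream site put '17.6' at 0.94 in ovaries, and leaving out the last 10 positions put '297' at 4.61 in OSCs. In OSCs '17.6' also passed 4-fold without the gypsy-group elements in the scaling (2.19), in the last 10% (2.30) and without its last 10 positions (2.16), while it stayed under it with total scaling (1.39), a pseudocount of 10 reads (1.70) and scaling to sequences that are not transposons (1.81). In ovaries that last scaling gave 1.46 for '297' and 0.50 for '17.6', and the median without the gypsy-group elements gave 1.05 and 0.07. The cause of these shifts was not tested.

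In siPIWI OSCs the last 5% of '297' held 82.8% and the last 30% held 92.8% of its reads, against 89.3% in the last 10%. Within 10 and 50 positions of the main end lay 51.1% and 73.0% of '297' reads, against 69.4% within 25, and 29.6% of '17.6' reads lay within 10 positions, against 46.1% within 25. Of 45 ovary transposons, 7 were at least 4-fold higher with total scaling, 7 with a pseudocount of 10 reads and 19 at 2-fold, against 11. In OSCs 28 of 73 transposons, and 8 of the 12 gypsy-group elements past the minimum, passed 2-fold, against 18 and 5 at 4-fold.

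No paired analysis was possible because each group had 1 library, and no library was left out for the same reason. Depth limits the ovary values, with 13 to 29 reads per element and library, and the scalings tried moved '17.6' there between -1.28 and 0.50.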
